A study of Mus musculus with 31 samples.

Results

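The neutrophil marker genes described here are *S100a8*, *S100a9*, *Csf3r*, *Cxcr2*, *Retnlg*, *Trem1*, *Clec4d*, *Clec4e* and *Ly6g*, chosen by name as genes that mouse neutrophils express and found by symbol in the deposited counts. They are 9 of the 39179 genes in the table. RNA from 20 whole tumors and 11 cultures of the mouse melanoma line 20967 was sequenced from its 3′ ends. The line came from C57BL/6 mice with the alleles Nras+LSL-G12D and Tyr::CreERT2+/o, in which the *Tyr* promoter directs an inducible Cre to melanocytes, and GR KO cells are a single clone of it edited with Cas9 in *Nr3c1*, the gene of the glucocorticoid receptor (GR). Parental or GR KO tumors were grown intradermally in wild-type C57BL/6 mice, whose own immune cells and GR were intact and whose age the labels do not give. In each genotype 5 tumors come from the control treatment, named in the labels only as control and in the study's methods as Cetraben cream, and 5 from the glucocorticoid (GC) clobetasol propionate, given as a 0.05% ointment on the skin 3 times weekly. Cultures received DMSO for 48 hours (3 cultures of each genotype) or clobetasol propionate for the same time (2 cultures of parental and 3 of GR KO cells), at 10 µM by the treatment labels and 1 µM by the library names.

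Neutrophils are short-lived phagocytes that leave the bone marrow under the growth factor G-CSF, follow CXC chemokines into inflamed tissue and kill microbes with stored granule proteins. In skin and in tumors they enter with injury and inflammation, and glucocorticoids are known both to hold them in the blood and to lower the chemokines that draw them out. Several of their typical transcripts are shared, since activated keratinocytes and monocytes also make *S100a8* and *S100a9*, and monocytes and macrophages also express *Trem1*, *Clec4d* and *Clec4e*.

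The libraries of tumors held 15528066 to 26386770 reads on genes, and those of cultures 14441166 to 22463188. Levels are CPM, the counts of a gene relative to a fixed library total, after scaling with TMM factors, and a level of 3 counts, taken as the floor, corresponds before that scaling to between 0.114 and 0.193 CPM in tumors and between 0.134 and 0.208 CPM in cultures. Floors cover counting error only. Each read marks a transcript end and does not scale with gene length, so levels of different genes are compared as CPM. Replicate numbers name tumors within a group, and no label identifies the mouse of a tumor. The design text of the series speaks of 10 mice with parental or GR KO tumors, which was read as 10 for each genotype with 1 tumor in each. The study's figure legend for these data states group sizes in mice, at most 5 per group. If tumors shared mice, the tests would count them as more animals than there were. Replicates differed by more than sampling noise in all 50 pairs within groups: the chi-square, averaged over genes, was 8.60 or more and reached 435. GR KO control tumors 1, 2 and 5 stood apart from the other 17, with TMM factors of 0.753, 0.816 and 0.819 and with 13403, 14800 and 14262 genes detected after all tumors were drawn to equal depth. Some of the values that rest on them, not all, are also given without them, a choice made after seeing the data.

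*Nr3c1*, the edited gene, had 63.4, 57.1, 44.9, 55.6 and 52.2 CPM in parental control tumors 1 to 5 and 53.4, 24.4, 48.2, 37.3 and 49.8 CPM in parental GC-treated tumors. Its level in GR KO tumors was 20.7, 27.3, 31.4, 31.8 and 23.5 CPM with control and 47.9, 21.7, 58.0, 32.5 and 49.4 CPM with GC. Among cultures, parental cells had 33.2, 30.0 and 35.6 CPM in DMSO and 39.5 and 33.4 CPM in GC, and GR KO cells had 24.8, 21.0 and 16.4 CPM in DMSO and 20.9, 22.5 and 13.1 CPM in GC. All GR KO control tumors lay below all parental control tumors, while the GC-treated groups overlapped. The log2 difference of GR KO from parental tumors was -1.02 with control (standard error 0.24, adjusted p = 0.0313 from edgeR), whereas with GC it was -0.02 (standard error 0.24, adjusted p = 0.981 from edgeR). The difference with control lost its call in 8 of 10 fits with 1 tumor removed, all but those without GR KO control 3 or 4, with values from -1.09 to -0.94 and adjusted p of at most 0.0860. With GR KO control tumors 1, 2 and 5 removed it was -0.76 (adjusted p = 0.575 from edgeR). Where the edit lies relative to the reads was not examined, and tumors hold host cells with an intact gene, so these levels do not check the knockout.

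In tumors, 8 of the 9 marker genes passed the filter on low values, 0.5 CPM or more in 3 or more tumors, and *Ly6g* did not. *Ly6g*, whose surface protein is the usual antibody target for mouse neutrophils, had 0 counts in all 31 libraries and was not tested. It belongs to a family of similar genes that lie side by side, and featureCounts at its defaults, which the study's methods name, leaves out reads with several positions. Whether reads of *Ly6g* were lost in this way was not tested. In cultures no marker gene passed the filter, so none was tested there. *S100a9*, *Retnlg*, *Trem1*, *Clec4e* and *Ly6g* had 0 counts in all 11 cultures, *S100a8* had 1 count in 1 culture, and *Csf3r* and *Cxcr2* had at most 3 and 2 counts. *Clec4d* was the exception, with 15, 0 and 13 counts in parental cells in DMSO, 7 and 7 in parental cells in GC, 0, 3 and 3 in GR KO cells in DMSO and 2, 1 and 0 in GR KO cells in GC. Summed over the 9 genes, tumors had 25.1 to 1305 CPM, and the means of the culture groups were 0.580, 0.479, 0.187 and 0.0538 CPM.

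In parental tumors, 2 of the 8 tested marker genes fell with GC, *S100a8* and *S100a9*, where 0.345% of all 15919 genes tested fell. A gene was called when its adjusted p from edgeR was under 0.05 and its fold change at least 1.5. All 8 had a negative log2 fold change, from -5.03 to -0.08, with a median of -1.17 beside 0.00 for all genes. An unadjusted p under 0.05 was found for 3 of the 8 and for 14.1% of all genes. In these bulk samples fewer neutrophils, less RNA per cell and changes in other cells that express these genes cannot be told apart.

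*S100a8* and *S100a9* encode the subunits of calprotectin, a calcium- and zinc-binding protein that fills the cytosol of neutrophils and acts as an alarm signal when released. *S100a8* had 11.3, 41.1, 128, 11.7 and 704 CPM in parental control tumors 1 to 5 and 4.24, 4.24, 3.36, 17.8 and 27.9 CPM in parental GC-treated tumors 1 to 5. Control tumor 5 stood far above the others, and GC-treated tumors 4 and 5 lay above control tumors 1 and 4, so the groups overlapped. The gene was 15.6-fold lower with GC, a log2 fold change of -3.96 (standard error 0.94, 95% interval -5.90 to -2.03, adjusted p = 0.0437 from edgeR). *S100a9* had 5.48, 20.8, 103, 8.33 and 567 CPM in the same control tumors and 2.70, 2.98, 5.04, 2.51 and 8.44 CPM in the GC-treated ones. Control tumor 5 was again the highest, and GC-treated tumor 5 lay above control tumors 1 and 4. The gene was 32.6-fold lower with GC, a log2 fold change of -5.03 (standard error 0.98, 95% interval -7.05 to -3.0, adjusted p = 0.0109 from edgeR).

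Both calls rested on single tumors. Without parental control 5, no marker gene was called by edgeR, and the log2 fold changes were -2.05 for *S100a8* (adjusted p = 0.316 from edgeR) and -2.98 for *S100a9* (adjusted p = 0.0657 from edgeR). *S100a9* kept its call in the other 9 fits that left out 1 tumor. *S100a8* also lost its call without parental control 3 (-4.05, adjusted p = 0.0783 from edgeR), GC 1 (-3.74, adjusted p = 0.0800 from edgeR), GC 2 (-3.75, adjusted p = 0.134 from edgeR), GC 3 (-3.72, adjusted p = 0.0957 from edgeR) or GC 4 (-4.18, adjusted p = 0.0903 from edgeR). With the 10 parental tumors fitted alone the log2 fold changes stayed at -3.965 for *S100a8* (adjusted p = 0.116 from edgeR) and -5.009 for *S100a9* (adjusted p = 0.0543 from edgeR), but neither passed. DESeq2 called both, *S100a8* at -3.94 (adjusted p = 0.00240 from DESeq2) and *S100a9* at -5.005 (adjusted p = 1.74e-05 from DESeq2). By the same method 378 of all genes were called in either direction, more than the 124 by edgeR, and 3090 had no adjusted p.

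In GR KO tumors, 0 of the 8 marker genes were called by edgeR with GC, where 6.42% of all genes were, and DESeq2 also called 0 of the 7 to which it gave an adjusted p, all but *Cxcr2*. An unadjusted p under 0.05 was found for 2 of the 8, *S100a8* and *S100a9*, and for 24.5% of all genes. The median log2 fold change of the 8 was -0.19 beside 0.05 for all genes, and 5 of the 8 were negative, which became -0.24 and 7 of the 8 without GR KO control tumors 1, 2 and 5. *S100a8* had 329, 564, 178, 94.2 and 712 CPM in GR KO control tumors 1 to 5 and 63.1, 36.7, 169, 147 and 85.7 CPM in GR KO GC-treated tumors. Control tumors 1, 2, 3 and 5 lay above all GC-treated tumors, and control tumor 4 lay among them. Its log2 fold change was -1.91 (standard error 0.86, 95% interval -3.67 to -0.14, adjusted p = 0.173 from edgeR). *S100a9* had 94.3, 214, 79.4, 66.3 and 303 CPM with control and 24.1, 5.82, 51.7, 47.4 and 38.1 CPM with GC. Here all 5 GC-treated tumors lay below all 5 control tumors. Its log2 fold change was -2.18 (standard error 0.86, 95% interval -3.95 to -0.41, adjusted p = 0.119 from edgeR). With the 10 GR KO tumors fitted alone *S100a9* was called (adjusted p = 0.0363 from edgeR), as were 391 of all genes. Without control tumors 1, 2 and 5 the log2 fold changes were -0.47 for *S100a8* (adjusted p = 0.915 from edgeR) and -1.16 for *S100a9* (adjusted p = 0.715 from edgeR).

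Whether GC acted on these genes differently in the 2 genotypes was asked with the difference of the GC effects, parental minus GR KO. By edgeR 0 of the 8 were called, where 0.195% of all genes were, with 1 of the 8 and 20.1% of all genes at an unadjusted p under 0.05. That share is unstable, since the 31 genes behind it became 0 to 1284 when 1 tumor was left out. DESeq2 called 0, but gave an adjusted p to only 4 of the 8, *S100a8*, *S100a9*, *Trem1* and *Clec4d*. The difference was -2.06 for *S100a8* (standard error 1.19, 95% interval -4.52 to 0.40, adjusted p = 0.331 from edgeR). For *S100a9* it was -2.85 (standard error 1.20, 95% interval -5.32 to -0.37, adjusted p = 0.192 from edgeR). All 8 differences were negative, from -2.85 to -0.06, with a median of -1.22 beside -0.04 for all genes. Without GR KO control tumors 1, 2 and 5 the median was -0.58, 7 of the 8 were negative and *Clec4d* was positive at 0.08, and with 1 tumor left out *Clec4e* changed sign in 7 of 20 fits. Other neutrophil genes, described by counts further below, were of both signs: the median was 0.14 over 17 genes of mature neutrophils, 8 of them negative, and -0.37 over 10 genes of granules and precursors, 7 of them negative. Leaving out 1 tumor gave values from -2.69 to -0.15 for *S100a8* and from -3.26 to -0.80 for *S100a9*, in both genes nearest to 0 without parental control 5. With GR KO control tumors 1, 2 and 5 removed the difference was -3.49 for *S100a8* (adjusted p = 0.556 from edgeR) and -3.85 for *S100a9* (adjusted p = 0.530 from edgeR).

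The genotypes were also compared at the same treatment, with the same tumors as above, so these values share samples with the GC effects. Between control tumors edgeR called 0 of the 8 marker genes, where 2.25% of all genes were called, DESeq2 called 0, and 0 of the 8 had an unadjusted p under 0.05 beside 20% of all genes. The log2 difference of GR KO from parental control tumors was 1.07 for *S100a8* (95% interval -0.66 to 2.79, adjusted p = 0.489 from edgeR) and 0.10 for *S100a9* (95% interval -1.59 to 1.79, adjusted p = 0.960 from edgeR). These values were -0.36 and -0.91 without GR KO control tumors 1, 2 and 5, and with 1 tumor left out they ran from 0.70 to 2.96 and from -0.31 to 2.14, both highest without parental control 5. Of the 17 other genes of mature neutrophils, *Il1r2*, a decoy receptor for interleukin 1, was higher in GR KO control tumors (0.75, adjusted p = 0.0396 from edgeR), a call lost in all fits without 1 tumor but that without GR KO control 4, with values from 0.69 to 0.86, and without GR KO control tumors 1, 2 and 5 (0.86, adjusted p = 0.320 from edgeR). In that list 4 had an unadjusted p under 0.05, DESeq2 called 2 and the median was 0.27, and of the 10 genes of granules and precursors 0 were called, 1 had such a p and the median was 0.05. Some markers of other cells were called too. By edgeR, *Laptm5* of leukocytes, *Ncr1* of NK cells, *Kdr* of endothelium and *Hba-a2* of red blood cells were higher in GR KO control tumors. *Krt1* of keratinocytes was lower. In that order, these calls were lost in 6, 9, 9, 8 and 8 of 10 fits without 1 tumor. None of them passed without GR KO control tumors 1, 2 and 5. Between GC-treated tumors edgeR called 0 of the 8, where 0.634% of all genes were called, and 4 of the 8 had an unadjusted p under 0.05, *S100a8*, *S100a9*, *Retnlg* and *Trem1*, beside 11.4% of all genes. All 8 differences were positive there, with a median of 1.29 beside 0.01 for all genes, while the 17 other genes of mature neutrophils had a median of 0.03, 7 of them negative, and the 10 of granules and precursors one of -0.04, 6 of them negative. Of 5 mast cell and basophil genes edgeR called *Mcpt4* lower there, also in all 10 fits without 1 tumor (-1.50 to -1.26). DESeq2 called 2 of these 5, and 3 had an unadjusted p under 0.05. Of 8 keratinocyte genes edgeR called 0, DESeq2 called 1, and 3 had such a p. Every GR KO GC-treated tumor had more *S100a8* than every parental one, a log2 difference of 3.13 (standard error 0.91, 95% interval 1.26 to 5.00, adjusted p = 0.131 from edgeR). For *S100a9* GR KO GC-treated tumor 2 overlapped the parental tumors, and the log2 difference was 2.95 (standard error 0.90, 95% interval 1.09 to 4.81, adjusted p = 0.161 from edgeR). DESeq2 called 1 of the 8, *S100a8*, with a log2 difference of 3.11 (adjusted p = 0.0410 from DESeq2), and 289 of all genes. The fit of the 10 GC-treated tumors alone called 129 of all genes and 2 of the 8, *S100a8* (adjusted p = 0.0309 from edgeR) and *S100a9* (adjusted p = 0.0160 from edgeR).

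**Figure D1:**
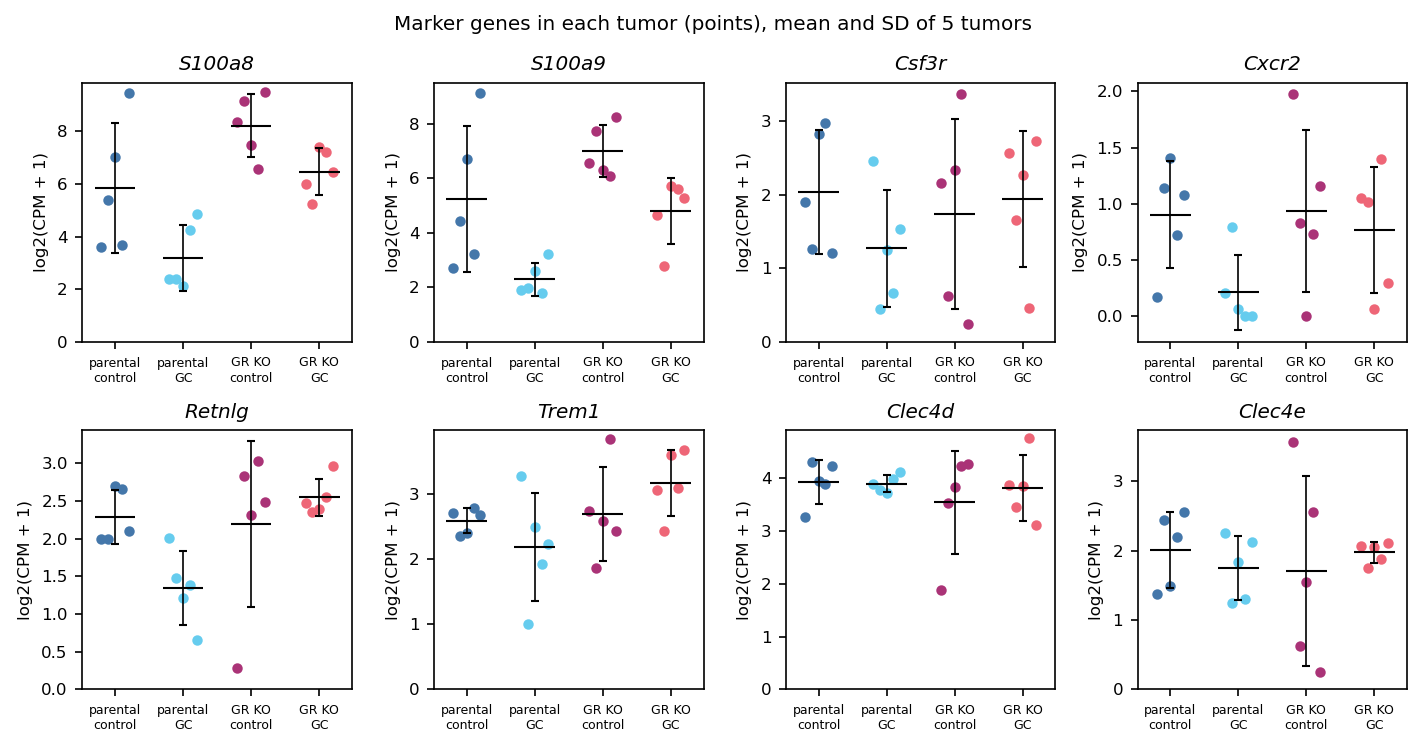
Level of each tested marker gene as log2(CPM + 1) in every tumor, by group, with points for tumors, a line for the mean and a bar for the SD of 5 tumors. *S100a8* and *S100a9* spread widely in parental control tumors and lie low in parental GC-treated tumors.

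The share of *S100a8* and *S100a9* in the summed CPM of the marker genes varied widely, from 17.0% (parental GC-treated tumor 1) to 97.4% (parental control tumor 5). It was under 50% in 6 of the 10 parental tumors and in 0 of the 10 GR KO tumors. Without them the sum lay between 17.9 and 53.1 CPM in all 20 tumors, with means of 31.7 ± 5.73 CPM in parental control, 24.3 ± 6.10 CPM in parental GC-treated, 31.4 ± 12.5 CPM in GR KO control and 34.7 ± 6.92 CPM in GR KO GC-treated tumors (SD, n = 5 each). The 4 groups overlapped in this sum, and no test was made on it. *S100a8* exceeded *S100a9* in counts in every tumor but parental GC-treated tumor 3, with ratios from 0.667 there to 7.10 in parental GC-treated tumor 4.

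*Csf3r* encodes the receptor for G-CSF, which sustains neutrophil production and survival. It had 2.74, 1.39, 6.07, 6.87 and 1.30 CPM in parental control and 4.49, 0.366, 1.37, 0.591 and 1.88 CPM in parental GC-treated tumors 1 to 5. GR KO tumors 1 to 5 had 3.44, 0.538, 4.03, 9.31 and 0.184 CPM with control and 4.90, 2.16, 3.82, 0.371 and 5.63 CPM with GC. The groups overlapped, and the spread within GR KO control tumors ran from 3 counts in tumor 5 to 241 counts in tumor 4. The log2 fold change with GC was -1.08 in parental tumors (95% interval -2.78 to 0.63, adjusted p = 0.593 from edgeR) and -0.06 in GR KO tumors (95% interval -1.73 to 1.62, adjusted p = 0.976 from edgeR). The value in GR KO tumors was -1.03 without control tumors 1, 2 and 5. With 1 tumor left out, that in parental tumors ran from -1.79 to -0.70.

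*Cxcr2* encodes the receptor for the CXC chemokines that guide neutrophils into tissue. It had the lowest mean of the 8 in every tumor group, though not the lowest level in every tumor. Its levels were 0.127, 1.20, 1.65, 0.649 and 1.12 CPM in parental control and 0.153, 0.733, 0.0442, 0 and 0 CPM in parental GC-treated tumors. GR KO tumors had 2.93, 0.777, 0, 0.656 and 1.23 CPM with control and 1.07, 1.02, 0.0450, 1.64 and 0.227 CPM with GC. The groups overlapped, and 7 of the 20 tumors had 3 counts or fewer. The log2 fold change was -2.32 in parental tumors (95% interval -4.87 to 0.23, adjusted p = 0.408 from edgeR) and -0.48 in GR KO tumors (95% interval -2.88 to 1.93, adjusted p = 0.841 from edgeR). The latter was 1.17 without GR KO control tumors 1, 2 and 5.

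*Retnlg* encodes a secreted resistin-like protein found in mature mouse neutrophils. It had 2.99, 2.97, 5.50, 5.30 and 3.28 CPM in parental control and 3.01, 1.78, 1.33, 1.63 and 0.570 CPM in parental GC-treated tumors. Only GC-treated tumor 1 lay within the range of the control tumors. The levels in GR KO tumors were 0.220, 6.15, 3.96, 7.18 and 4.61 CPM with control and 4.55, 4.10, 4.27, 4.87 and 6.81 CPM with GC. The GR KO groups overlapped, and control tumor 1, with 3 counts, lay far below the other tumors of its group. The log2 fold change was -1.27 in parental tumors (95% interval -2.40 to -0.13, adjusted p = 0.298 from edgeR) and 0.15 in GR KO tumors (95% interval -0.96 to 1.25, adjusted p = 0.896 from edgeR), with a difference of -1.41 (95% interval -2.99 to 0.17, adjusted p = 0.298 from edgeR), or -1.05 without GR KO control tumors 1, 2 and 5. Every GR KO GC-treated tumor lay above every parental one, a log2 difference of 1.56 (95% interval 0.42 to 2.70, adjusted p = 0.254 from edgeR).

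*Trem1*, *Clec4d* and *Clec4e* encode receptors of innate immune cells, *Trem1* an amplifier of inflammatory signals and *Clec4d* and *Clec4e* C-type lectins that bind microbial glycolipids. *Trem1* lay between 4.13 and 5.84 CPM in parental control, between 0.995 and 8.68 CPM in parental GC-treated, between 2.63 and 13.3 CPM in GR KO control and between 4.37 and 11.8 CPM in GR KO GC-treated tumors. The groups overlapped, and the log2 fold change with GC was -0.27 in parental tumors (95% interval -1.22 to 0.68, adjusted p = 0.839 from edgeR) and 0.44 in GR KO tumors (95% interval -0.50 to 1.38, adjusted p = 0.585 from edgeR). Leaving out 1 tumor gave *Trem1* values from -0.72 to -0.02 in parental and from 0.25 to 0.94 in GR KO tumors. The value in GR KO tumors changed sign to -0.17 without control tumors 1, 2 and 5, and to -0.07 with a covariate for genes detected at equal depth. *Clec4d* lay between 8.66 and 19.0 CPM in parental control, 12.2 and 16.4 CPM in parental GC-treated, 2.71 and 18.2 CPM in GR KO control and 7.67 and 26.3 CPM in GR KO GC-treated tumors. Its log2 fold change was -0.08 in parental tumors (95% interval -0.85 to 0.69, adjusted p = 0.954 from edgeR) and 0.18 in GR KO tumors (95% interval -0.59 to 0.95, adjusted p = 0.801 from edgeR). *Clec4e* lay between 1.59 and 4.88 CPM in parental control, 1.36 and 3.78 CPM in parental GC-treated, 0.184 and 10.9 CPM in GR KO control and 2.37 and 3.31 CPM in GR KO GC-treated tumors. Its log2 fold change was -0.38 in parental tumors (95% interval -1.76 to 1.00, adjusted p = 0.848 from edgeR) and -0.32 in GR KO tumors (95% interval -1.70 to 1.06, adjusted p = 0.806 from edgeR). With 1 tumor left out, the value in parental tumors ran from -0.57 to -0.18.

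In order of mean CPM, parental control tumors had *S100a8* (179 ± 297), *S100a9* (141 ± 242), *Clec4d* (14.8 ± 4.05), *Trem1* (5.04 ± 0.784), *Retnlg* (4.01 ± 1.28), *Csf3r* (3.68 ± 2.63), *Clec4e* (3.26 ± 1.51) and *Cxcr2* (0.948 ± 0.579; SD, n = 5 each). The SDs of neighbors overlap from *S100a8* to *Clec4d* and from *Trem1* to *Clec4e*, which sets aside that the genes were measured in the same tumors. The *S100* means rest on control tumor 5, and *Clec4d* exceeded *S100a9* in control tumors 1 (8.66 against 5.48 CPM) and 4 (13.9 against 8.33 CPM), and in tumor 4 also *S100a8* (11.7 CPM). Within tumors, *S100a8* exceeded *S100a9* in all 5, with ratios of their counts from 1.24 to 2.07. With GC, parental tumors had 11.5 ± 10.95 CPM of *S100a8* and 4.33 ± 2.51 CPM of *S100a9* (SD, n = 5 each), beside 13.99 ± 1.69 CPM of *Clec4d* (SD, n = 5).

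How the marker genes varied together between tumors of a group was measured with Pearson's r. It was computed on log2(CPM + 1) for all 28 pairs of the 8 detected genes over the 20 tumors after subtracting each group's mean, with values permuted within groups and p adjusted over the 28 pairs by the Benjamini-Hochberg method. Of the 28, 14 were positive and 14 negative, with a median r of 0.00753. *S100a8* and *S100a9* varied together, with r = 0.906 (permutation p = 3e-05, adjusted p = 0.00084) and rho = 0.835 (permutation p = 0.0001, adjusted p = 0.0028), and r = 0.818 without the 2 tumors farthest from the median. *Csf3r* and *Trem1* had r = 0.676 (permutation p = 0.0024, adjusted p = 0.034) and rho = 0.657 (permutation p = 0.0037, adjusted p = 0.052), and r = 0.752 without the 2 farthest tumors. On the scale log2(CPM + 0.1) the latter had r = 0.648 (adjusted p = 0.065). None of the other 26 pairs had an adjusted p under 0.05, among them *S100a8* with *Csf3r* (r = -0.433, permutation p = 0.061, adjusted p = 0.43; rho = -0.421, permutation p = 0.088, adjusted p = 0.35; r = -0.447 without the 2 farthest).

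**Figure D2:**
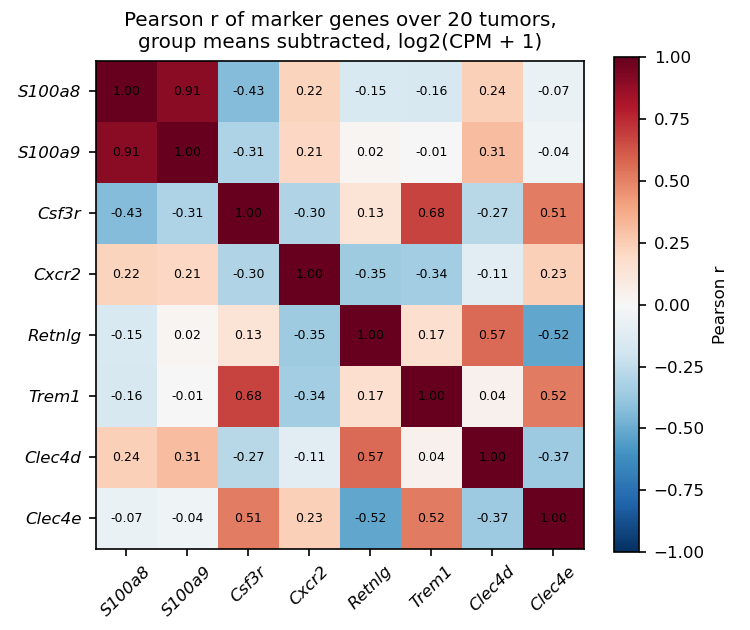
Pearson r of log2(CPM + 1) for each pair of tested marker genes over 20 tumors, with group means subtracted; color and printed numbers give r. *S100a8* and *S100a9* stand out with r = 0.906.

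Likeness to the mean of the members' standardized values was described with no test, on log2(CPM + 1) with each group's mean subtracted, so differences between groups do not enter. Over the 20 tumors, the most alike among 13358 genes with a mean of at least 1 CPM were *Dip2a* (Pearson r 0.830), *Nxt2* (0.826), *Slc2a4* (0.803), *Aplnr* (0.8), *Me1* (0.799), *Slc8b1* (0.796), *Twf2* (0.793) and *Zfp746* (0.793). The members' own r to the mean of their standardized values ranged from 0.170 for *Cxcr2* to 0.640 for *S100a9*.

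Genes that share roles or cells with the members were described by their counts. Of 20 other genes of mature neutrophils 17 were tested, and edgeR called 0 with GC in parental tumors, with 4 at an unadjusted p under 0.05, 2 called by DESeq2, 13 of the 17 negative and a median log2 fold change of -0.54. With GC in GR KO tumors 2 fell, *Il1r2* by 1.02 on the log2 scale (adjusted p = 0.00439 from edgeR), and *Ltb4r1*, a leukotriene B4 receptor, by 0.99 (adjusted p = 0.0357 from edgeR), with 7 at an unadjusted p under 0.05, 4 called by DESeq2, 15 of the 17 negative and a median of -0.50. Of all genes, 3.71% fell by edgeR in that comparison and 24.5% had an unadjusted p under 0.05. *Il1r2* kept its call in all 10 fits without 1 tumor, and *Ltb4r1* lost it in all but those without GR KO control 3, control 4 or GC 4, with values from -1.16 to -0.86. Without GR KO control tumors 1, 2 and 5, *Il1r2* was called (-1.13, adjusted p = 0.0479 from edgeR) and *Ltb4r1* was not (-0.50, adjusted p = 0.592 from edgeR). The most abundant gene of this list was *Mmp9*, a gelatinase of neutrophil granules and of macrophages, with a mean of 231 CPM over the tumors and a log2 fold change of -1.39 in parental tumors (adjusted p = 0.112 from edgeR). Of 16 genes of granules and precursors 10 were tested and 0 were called by edgeR in either genotype, with 1 at an unadjusted p under 0.05 and 1 called by DESeq2 in parental tumors (median -0.33), and 3 and 1 in GR KO tumors (median 0.10). The most abundant gene of this list was *Lyz2*, with a mean of 654 CPM over the tumors. It is not a gene of neutrophils alone, since the paper used its Cre line to remove GR from myeloid cells. Among 12 partners of the marker proteins, all tested, edgeR called 0 with GC in either genotype, with 3 at an unadjusted p under 0.05 in each, DESeq2 calling 0 in parental and 2 in GR KO tumors, and medians of -0.01 and -0.09.

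Of 12 genes listed for drawing or sustaining neutrophils, all ligands but the C5a receptor *C5ar1*, 6 were tested, and 1, *Cxcl5*, a ligand of CXCR2, fell in each genotype. *Cxcl5* had 1.08, 5.57, 3.19, 6.06 and 11.6 CPM in parental control and 1.23, 0.0523, 0.442, 0.197 and 0.0570 CPM in parental GC-treated tumors. It had 8.06, 2.21, 5.74, 14.4 and 9.22 CPM in GR KO control and 1.87, 1.40, 0.989, 0.265 and 1.09 CPM in GR KO GC-treated tumors. All GR KO GC-treated tumors lay below all GR KO control tumors, and in parental tumors only GC-treated tumor 1 overlapped, with control tumor 1. The log2 fold change was -3.77 in parental tumors (standard error 0.76, adjusted p = 0.0136 from edgeR), and GR KO tumors had -2.81 (standard error 0.72, adjusted p = 0.0222 from edgeR), and the difference was -0.96 (95% interval -2.96 to 1.04, adjusted p = 0.605 from edgeR). In parental tumors the call was lost without control 5 (-3.30, adjusted p = 0.0626 from edgeR) or GC 4 (-3.60, adjusted p = 0.0552 from edgeR). For GR KO tumors it was lost without GC 3 (-2.76, adjusted p = 0.0686 from edgeR), without GC 5 (-2.80, adjusted p = 0.0613 from edgeR) and without control tumors 1, 2 and 5 together (-3.20, adjusted p = 0.0901 from edgeR). Medians over the 6, *C5ar1* (-0.10 and 0.06) among them, were -1.30 in parental and -0.49 in GR KO tumors, with 1 and 2 at an unadjusted p under 0.05 and 1 called by DESeq2 in each. Of 9 leukocyte adhesion genes, all tested, *Vcam1*, an endothelial ligand of leukocyte integrins, rose in parental tumors (log2 fold change 1.01, adjusted p = 0.00957 from edgeR) and in GR KO tumors (1.23, adjusted p = 0.00142 from edgeR) and kept both calls in all fits without 1 tumor, but not in GR KO tumors without control tumors 1, 2 and 5 (1.10, adjusted p = 0.104 from edgeR). With GC *Icam1*, another such ligand, fell by 0.84 on the log2 scale in the GR KO comparison (adjusted p = 0.0373 from edgeR) and lost the call in all fits without 1 tumor but those without GR KO control 1 or 5, with values from -0.99 to -0.64, and it was called without control tumors 1, 2 and 5 together (-1.35, adjusted p = 0.0126 from edgeR). Of the 9 adhesion genes, 7 were negative in parental and 6 in GR KO tumors, with medians of -0.63 and -0.29, 6 and 3 at an unadjusted p under 0.05 and 2 called by DESeq2 in each.

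Keratinocytes are another source of *S100a8* and *S100a9*, and intradermal tumors can carry skin. All 8 listed keratinocyte genes were tested, *Krt14* was the most abundant with a mean of 1215 CPM over the tumors, and none was at 0 in all tumors. Their summed level was 1889.8, 1764, 2581, 1723 and 5798 CPM in parental control tumors 1 to 5 and 1982, 2554, 1914, 2349 and 2392 CPM in parental GC-treated tumors. In GR KO tumors it was 5657, 6899, 4724, 2999 and 4071 CPM with control and 1516, 2117, 2836, 3212 and 2701 CPM with GC. Parental control tumor 5, highest in both *S100* genes among parental tumors, was also highest among them in this sum. GR KO control tumors 1, 2, 3 and 5 had larger sums than GR KO control tumor 4. The orders also differed: GR KO control tumor 5 was highest of its group in *S100a8* (712 CPM) and *S100a9* (303 CPM), but its sum lay below those of tumors 1, 2 and 3. Parental control tumor 2 had more *S100a8* than tumor 1 (41.1 against 11.3 CPM) but a smaller sum. Among parental control tumors, tumor 3 was next after tumor 5 in both *S100* genes and in this sum. Between treatments, parental control tumor 3 and GC-treated tumor 2 had nearly the same sum, 2581 and 2554 CPM, with 103 and 2.98 CPM of *S100a9*. Parental control tumor 1 and GC-treated tumor 3, with sums of 1889.8 and 1914 CPM, had 5.48 and 5.04 CPM of *S100a9*. Of the 8, edgeR called 1 in parental tumors, *Lor*, higher by 1.19 (adjusted p = 0.0149 from edgeR), a call lost without control 3 (1.09), control 5 (1.15) or GC 5 (1.13). In GR KO tumors *Krt1* (1.85, adjusted p = 0.00234 from edgeR) and *Krt10* (2.13, adjusted p = 0.0136 from edgeR) rose and *Krt14* (-1.42, adjusted p = 0.0302 from edgeR) and *Krt16* (-1.23, adjusted p = 0.0488 from edgeR) fell. *Krt1* kept its call in all 10 fits without 1 tumor, *Krt10* lost it without GC 5 (1.54), *Krt14* in all but those without control 4, control 5 or GC 4 (-1.62 to -1.22) and *Krt16* in all but those without control 4 or GC 4 (-1.41 to -1.04). Without GR KO control tumors 1, 2 and 5 none of these 4 passed, with values of 1.52, 1.19, -1.13 and -0.67 and adjusted p from edgeR of at least 0.143. Medians over the 8 were -0.39 in parental and -0.27 in GR KO tumors. An unadjusted p under 0.05 was found for 5 of the 8 in each genotype, and DESeq2 called 2 in parental and 4 in GR KO tumors. The part of keratinocytes in the *S100* results was not tested.

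**Figure D3:**
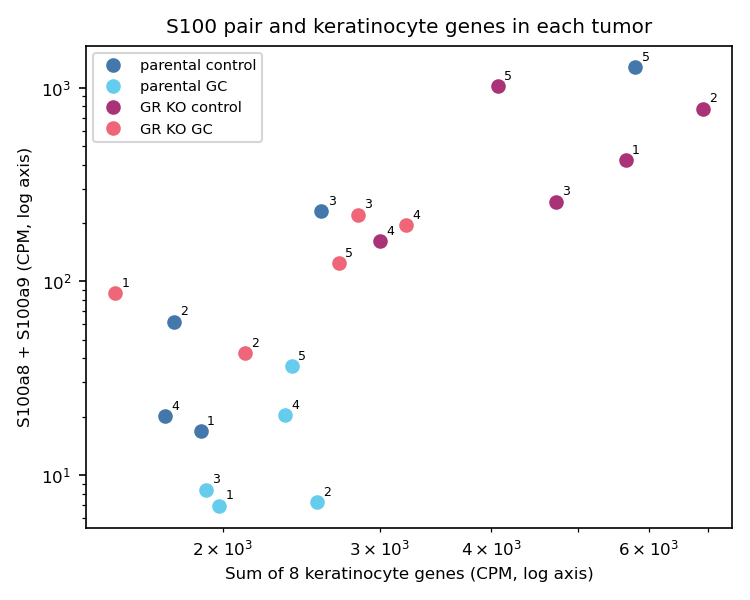
Summed CPM of *S100a8* and *S100a9* against the summed CPM of 8 keratinocyte genes in each tumor, both on log axes. Colors are groups and numbers are replicates; parental control tumor 5, at 5798 CPM of keratinocyte genes, lies with the GR KO control tumors.

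Monocytes and macrophages can also express *S100a8*, *S100a9* and the receptor genes. All 10 of their listed genes were tested, *C1qa* was the most abundant with 3241 CPM, and none was at 0 in all tumors. Their summed level was 5670.5, 5662, 4403, 5172 and 4029.6 CPM in parental control and 6305, 8433, 3705, 8786 and 5369 CPM in parental GC-treated tumors. In GR KO tumors it was 9425, 8310.3, 6005, 7134 and 6865 CPM with control and 5430.4, 8105, 4864, 5205 and 4927 CPM with GC. In parental tumors edgeR called 0 of the 10 with GC, with 3 at an unadjusted p under 0.05 and 0 called by DESeq2, and the median log2 fold change was 0.04. The GR KO comparison called 1, *Mrc1*, higher by 1.20 (adjusted p = 0.0267 from edgeR), with 3 at an unadjusted p under 0.05, 2 called by DESeq2 and a median of 0.00. *Mrc1* lost its call in 6 of the 10 fits without 1 tumor, those without GR KO control 1, 2 or 3 or GC 1, 3 or 5, with values from 0.98 to 1.48, and without GR KO control tumors 1, 2 and 5 together (0.89, adjusted p = 0.363 from edgeR). Of 4 genes of all leukocytes, *Coro1a* fell in parental tumors by 1.29 on the log2 scale (adjusted p = 0.0371 from edgeR), a call lost in all fits without 1 tumor but those without parental control 2 or GC 1, with values from -1.53 to -1.12. *Laptm5*, the most abundant at 595 CPM, fell by 1.34 in the GR KO comparison (adjusted p = 0.00284 from edgeR) and kept its call in all 10 such fits, but not without GR KO control tumors 1, 2 and 5 (-0.96, adjusted p = 0.0633 from edgeR). In each genotype 1 of these 4 had an unadjusted p under 0.05 and 1 was called by DESeq2, with medians of -0.35 and -0.38. The part of these cells in the results for the marker genes was not tested.

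In GRCm38, by the GENCODE M21 annotation, *S100a8* (ENSMUSG00000056054) lies on the plus strand of chromosome 3 from 90668978 to 90670035 and *S100a9* (ENSMUSG00000056071) on the minus strand from 90692632 to 90695721, with 22596 bases between them. *Clec4d* (chromosome 6, 123262111 to 123275265) and *Clec4e* (chromosome 6, 123281789 to 123289870) are also neighbors, 6523 bases apart. Each of the others is the only member on its chromosome, *Csf3r* on chromosome 4 (126024550 to 126044440), *Cxcr2* on chromosome 1 (74153989 to 74161246), *Retnlg* on chromosome 16 (48872621 to 48874496), *Trem1* on chromosome 17 (48232768 to 48246924) and *Ly6g* on chromosome 15 (75155240 to 75159126). *Trem1* was the only member to overlap another annotated gene, a processed pseudogene on the opposite strand that covers 0 of its exon bases.

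The promoters of *S100a8* and *S100a9* are shown because these neighbors varied together and were the members that fell with GC. They are the 250 bases before the RefSeq start on GRCm38.p6, at chr3:90668821-90669070 on the plus strand and chr3:90695722-90695971 on the minus strand, written 5′ to 3′ with motif matches in capitals. The *S100a8* window reaches past the GENCODE start of that gene.
S100a8: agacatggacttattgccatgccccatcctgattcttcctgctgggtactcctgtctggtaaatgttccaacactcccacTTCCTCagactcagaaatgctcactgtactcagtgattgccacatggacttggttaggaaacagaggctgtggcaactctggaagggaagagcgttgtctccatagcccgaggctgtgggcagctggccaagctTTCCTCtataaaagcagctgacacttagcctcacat
S100a9: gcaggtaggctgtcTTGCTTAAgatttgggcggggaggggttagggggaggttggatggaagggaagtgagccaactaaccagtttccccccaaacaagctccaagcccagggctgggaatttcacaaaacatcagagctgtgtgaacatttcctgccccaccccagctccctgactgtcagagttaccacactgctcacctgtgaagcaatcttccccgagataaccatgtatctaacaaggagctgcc
Motifs were searched on both strands in the 10 RefSeq promoters of all 9 members, and a match is a description of letters only. The capitals in *S100a8* are 2 matches to GAGGAA, the core bound by PU.1, a factor of myeloid cells, which start 170 and 36 bases before the RefSeq start, the nearer one inside the gene as GENCODE annotates it, and read as TTCCTC. The capitals in *S100a9* are 1 match to TTGCNNAA, a form bound by C/EBP factors of granulocytes, 236 bases before the RefSeq start. GAGGAA was found in promoters of 7 of the 9 members and in 23.3% of the 32851 promoters of that length, and TTGCNNAA in 4 of the 9 and in 9.56% of all. AGAACA, a half-site of GR, was found for *Cxcr2* and *Clec4d* and in 16.1% of all promoters, and TGANTCA, the AP-1 motif, for 0 of the 9 and in 6.75% of all. No 2 of these matches share bases in the windows shown.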

How the data were processed

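RNA of 20 tumors and 11 cultures was sequenced from 3′ ends with QuantSeq. The authors trimmed reads with Trim Galore 0.6.5, aligned them with STAR 2.6.1d to GRCm38 and deposited integer read counts from featureCounts with Ensembl release 75 at its default settings, by the study's methods. Tumors were grouped by the labels, and the replicate number was not used as a pair. Counts were scaled with TMM factors, and the 4 tumor groups were fitted together by quasi-likelihood in edgeR 4.0.16 (R 4.3.3), with Benjamini-Hochberg adjustment over 15919 genes tested. DESeq2 1.42.0 was an alternative, besides other scaling, filters, call rules, a replicate block, a covariate, 2-group fits and leaving out tumors. Standard errors come from the F statistic and 95% intervals from the t distribution of its degrees of freedom. The code was tested on simulated data. The members, the other gene lists and the rule for named genes (those called in a list with the smallest adjusted p, at most 4 per contrast, its most abundant gene and the 8 most like the members) were chosen with earlier results of these data known.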

Additional observations from a re-analysis of the deposited data

Results flagged for a closer look

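In 32 groups of 5 tumors, 8 genes in 4 groups each, the tumor at either end was compared with its group by Dixon's ratio on log2(CPM + 1), and 2 were farther from the rest than the 95% limit of 0.71. Chance gives this in about 1 in 20 groups. *Cxcr2* had 0.733 CPM in parental GC-treated tumor 2, above the other 4 tumors of its group. *Retnlg* had 0.220 CPM in GR KO control tumor 1, below the other 4.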

How the results depend on the processing

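Over 28 alternative settings, 683 of 756 values of single marker genes kept their direction and, where they had an adjusted p, their side of the threshold, 57 changed sign, 10 no longer passed and 6 newly passed. DESeq2 gave no adjusted p to 1 marker gene with GC in each genotype and to 4 in the difference of GC effects. For these only the direction was compared. None of the values that changed sign had passed the test. No marker gene passed the filter in cultures, so no alternative was run there. Genes with under 10 counts in any tumor have no value under that filter, which left *S100a8*, *S100a9*, *Trem1* and *Clec4d*. *Cxcr2*, *Csf3r* and *Clec4e* reach 3 counts or fewer in some tumors, and their intervals are wide. *Retnlg* also falls to 3 counts, in GR KO control tumor 1.

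With GC in parental tumors, 2 marker genes were called, 0 to 2 when 1 tumor was left out and 0 when only the groups compared were fitted. With GC in GR KO tumors 0 were called, and 1 when only those groups were fitted. Between GC-treated tumors 0 were called, 1 by DESeq2 and 2 in the fit of those groups alone. Of the pairs of marker genes, 2 passed, and 1 on log2(CPM + 0.1). The cause of these changes was not tested.

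The replicate number as a block gave 1 call with GC in parental tumors, with *S100a8* at -3.24 (adjusted p = 0.0624 from edgeR), and 2 between GC-treated tumors. Same-numbered tumors deviated together with a mean r of 0.0583 over 30 pairs (-0.543 to 0.415), beside -0.0128 for other numbers, and 7 of 20 tumors correlated best with one of their own number, a count whose chance value was not computed. No label pairs tumors by number. With the block, sign changed for *Csf3r* (0.53) and *Clec4e* (0.051) with GC in GR KO tumors, for *Cxcr2* (-0.43) and *Clec4e* (-0.30) between control tumors, and for *Clec4d* (-0.021) between GC-treated tumors.

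With a covariate for how many genes were detected at equal depth, sign changed for *Cxcr2* (0.50), *Retnlg* (-0.25) and *Trem1* (-0.073) with GC in GR KO tumors and for *S100a9* (-0.40), *Csf3r* (0.97) and *Cxcr2* (-1.06) between control tumors. Without GR KO control tumors 1, 2 and 5, chosen after seeing the data, it changed for *Cxcr2* (1.17), *Retnlg* (-0.23), *Trem1* (-0.17) and *Clec4d* (-0.17) with GC in GR KO tumors, for *Clec4d* (0.076) in the difference of GC effects, and for *S100a8* (-0.36), *S100a9* (-0.91), *Csf3r* (0.89), *Cxcr2* (-1.43) and *Clec4d* (0.10) between control tumors.

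Leaving out 1 tumor, values on both sides of 0 were found with GC in parental tumors for *Clec4d* (-0.22 to 0.029). With GC in GR KO tumors they were found for *Clec4d* (-0.16 to 0.36), *Clec4e* (-0.63 to 0.63), *Csf3r* (-0.36 to 0.74), *Cxcr2* (-0.91 to 0.26) and *Retnlg* (-0.16 to 0.40). In the difference of GC effects they were found for *Clec4d* (-0.44 to 0.082) and *Clec4e* (-1.01 to 0.25). Between control tumors the ranges were -0.31 to 2.14 for *S100a9*, -0.85 to 0.31 for *Csf3r*, -0.51 to 0.55 for *Cxcr2*, -0.10 to 0.45 for *Retnlg*, -0.20 to 0.49 for *Trem1*, -0.41 to 0.016 for *Clec4d* and -0.78 to 0.48 for *Clec4e*. Between GC-treated tumors *Clec4d* ranged from -0.32 to 0.17. The cause was not tested.

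The number of all genes called by DESeq2 was 378 with GC in parental tumors (124 by edgeR), 1779 in GR KO tumors (1022), 817 for the difference (31), 1004 between control tumors (358) and 289 between GC-treated tumors (101). DESeq2 gave no adjusted p to 3090, 3706, 5248, 320 and 1857 genes in these comparisons. When 1 tumor was left out, edgeR called 60 to 178, 303 to 2411, 0 to 1284, 61 to 1762 and 40 to 114 genes in the same order. With the covariate edgeR called 535, 219, 15, 51 and 365 genes. Without GR KO control tumors 1, 2 and 5 they were 68 in GR KO tumors, 0 for the difference and 23 between control tumors. Fits of 2 groups called 391 genes in GR KO tumors, 159 between control tumors and 129 between GC-treated tumors, and a fold change of at least 2 left 583 in GR KO tumors and 238 between control tumors. For the difference, 49 were called without the low-count filter, 66 with at least 10 counts in every tumor and 144 with the block, which called 160 between GC-treated tumors.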

Other observations

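Markers of other cells in the tumors were counted with GC in the same fits. In parental tumors edgeR called 0 of the 2 tested eosinophil genes, 5 mast cell and basophil genes, 5 dendritic cell genes, 7 T and NK cell genes, 5 endothelial genes, 5 red blood cell genes and 5 melanocyte genes. Of these, DESeq2 called 1 dendritic cell and 1 endothelial gene, and an unadjusted p under 0.05 was found for 0 eosinophil, 0 mast cell, 1 dendritic cell, 3 T and NK cell, 2 endothelial, 2 red blood cell and 1 melanocyte gene. In GR KO tumors *Foxp3* and *Cd3d* of T cells, *Kdr* of endothelium, *Zbtb46* of dendritic cells and the hemoglobin genes *Hbb-bs*, *Hbb-bt*, *Hba-a1* and *Hba-a2* fell, where 3.71% of all genes fell. DESeq2 called 0 eosinophil, 1 mast cell, 1 dendritic cell, 4 T and NK cell, 1 endothelial, 4 red blood cell and 0 melanocyte genes. An unadjusted p under 0.05 was found for 1 eosinophil, 2 mast cell, 1 dendritic cell and 4 T and NK cell genes. It was also found for 3 endothelial, 4 red blood cell and 0 melanocyte genes. Calls of *Foxp3*, *Kdr*, *Hba-a1* and *Hba-a2* held in all 10 fits without 1 tumor. The call was lost for *Cd3d* without GR KO control 1 or 2 or GC 1, 3 or 5 (-1.41 to -1.07), for *Zbtb46* in all but those without control 3, 4 or 5 (-1.18 to -0.51), for *Hbb-bs* without control 1 or GC 2, 3 or 5 (-1.35 to -0.85) and for *Hbb-bt* in all but those without control 5 or GC 1 (-1.69 to -1.10). Without GR KO control tumors 1, 2 and 5 only *Hba-a1* (-2.13) and *Hba-a2* (-2.54) of these passed. The most abundant genes were *Ccr3* (0.887 CPM) for eosinophils, *Mcpt4* (39.6 CPM) for mast cells, *Zbtb46* (25.3 CPM) for dendritic cells, *Cd3d* (30.4 CPM) for T cells, *Kdr* (28.5 CPM) for endothelium, *Hbb-bs* (45.9 CPM) for red blood cells and *Mitf* (33.5 CPM) for melanocytes. *Epx* and *Il5ra* of eosinophils and *Tyr*, a defining melanocyte gene, were at 0 in all tumors.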
